A study of Homo sapiens with 9 samples.

Results

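The genes described here encode the enzymes that desaturate and lengthen fatty acids in the endoplasmic reticulum. They are the 4 desaturase genes SCD, SCD5, FADS1 and FADS2 and the 6 elongase genes ELOVL1, ELOVL2, ELOVL4, ELOVL5, ELOVL6 and ELOVL7, taken by symbol from a table of 19907 genes, and all 10 passed the filter on low counts. RNA was sequenced from wild-type HUES8 cells, an established line of human embryonic stem cells, during differentiation to definitive endoderm, the embryonic layer that forms the gut, liver and pancreas. Every group received activin A (100 ng/mL), Wnt-3a (50 ng/mL) and albumin (0.2%, without fatty acids) for 2 days, and Wnt-3a was then withdrawn for 1 to 2 days. The DE group had no inhibitor, the C75 group received C75, an inhibitor of fatty acid synthase (FASN), and the ETO group received ETO, an inhibitor of fatty acid oxidation, with 3 libraries in each group. The labels give no inhibitor dose, treatment window or harvest day and name no separate cultures, so the p-values reflect only library-to-library spread, possibly of technical origin. All 9 libraries come from a single cell line.

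Fatty acid synthase releases mainly palmitate, a saturated chain. ELOVL6 lengthens palmitate to stearate, and SCD and SCD5 place the first double bond in either, giving the monounsaturated chains of membranes and storage lipid. Polyunsaturated chains start from dietary precursors, which FADS2 and FADS1 desaturate in turn, with elongation by ELOVL5 and ELOVL2 between and after those steps. ELOVL1, ELOVL4 and ELOVL7 make long and very long chains, used for example in sphingolipids. SCD, FADS1, FADS2, ELOVL5 and ELOVL6 are textbook targets of the transcription factor SREBP1, the product of SREBF1.

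The coding stretches below are shown because they let the members be compared at the motif their enzymes share. They are read 5′ to 3′ from GENCODE release 29 transcripts, and capitals mark the codons of a histidine box, the iron-binding motif of the active site in desaturases and the conserved catalytic motif of elongases (histidine, any 2 residues, histidine, histidine).
ELOVL1: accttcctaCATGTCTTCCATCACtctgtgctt
ELOVL2: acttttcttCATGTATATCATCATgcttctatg
ELOVL4: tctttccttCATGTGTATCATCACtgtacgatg
ELOVL5: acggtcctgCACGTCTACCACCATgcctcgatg
ELOVL6: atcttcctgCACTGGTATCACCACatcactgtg
ELOVL7: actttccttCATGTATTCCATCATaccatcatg
SCD: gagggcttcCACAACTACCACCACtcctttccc
SCD5: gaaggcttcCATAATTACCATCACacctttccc
FADS1: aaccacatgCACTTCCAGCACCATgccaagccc
FADS2: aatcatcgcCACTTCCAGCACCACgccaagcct
Each elongase and FADS2 had 1 match to this pattern in its coding sequence, and SCD, SCD5 and FADS1 had 2, of which the second is shown. These are matches of letters to 1 pattern and do not give the number of histidine boxes in an enzyme. Of the transcripts, 0.00% of the 50-base stretches of ELOVL1, ELOVL2, ELOVL4 and ELOVL5 occurred in a transcript of another gene. The share was 4.42% for SCD, partly with its pseudogene SCDP1, and at most 2.82% for the other 5 genes.

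On GRCh38, SCD lies on chromosome 10 at 100347124 to 100364834 (plus strand) and SCD5 on chromosome 4 at 82629539 to 82798857 (minus strand). FADS1 (61799625 to 61829318, minus strand) and FADS2 (61792980 to 61867354, plus strand) overlap on chromosome 11, where the annotated span of FADS1 lies within that of FADS2. Their exons share 490 bases on opposite strands, 4.79% of the merged exons of FADS1 and 4.44% of those of FADS2, and reads there cannot be told apart because the strand setting of the counting is not known. ELOVL2 (10980759 to 11044314), ELOVL5 (53267398 to 53349179) and ELOVL4 (79914812 to 79947580) lie on chromosome 6, ELOVL6 (110045846 to 110199199) on chromosome 4, ELOVL7 (60751791 to 60844389) on chromosome 5 and ELOVL1 (43363397 to 43368074) on chromosome 1, all on the minus strand.

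Library totals ran from 17379711 to 21510997 counts. The 10 genes together took 0.262% to 0.272% of the counts in DE, 0.311% to 0.319% in C75 and 0.338% to 0.342% in ETO. Mitochondrial transcripts took 2.87% to 3.12% of the counts in DE, 3.26% to 3.55% in C75 and 4.24% to 4.46% in ETO. Marker levels also moved with the groups. Summed levels of 10 definitive endoderm markers were 10067 to 10485 CPM (counts scaled to a common library size) in DE, 15857 to 16248 in C75 and 5436 to 5549 in ETO, and none of the 10 was at 0. CER1 made up most of this sum (7034, 11408 and 3849 CPM on average). All 10 rose with C75, but SOX17 only 1.07-fold and FOXA2 only 1.22-fold. With ETO 9 fell and LHX1 rose 1.52-fold. Of all genes tested, 31.2% rose and 31.9% fell with C75 (adjusted p below 0.05), and 34.7% rose and 35.3% fell with ETO. These shares also stand beside the marker counts that follow. Summed levels of 5 pluripotency markers were 647 to 698 CPM in DE, 311 to 322 in C75 and 1789 to 1849 in ETO, and those of 6 mesoderm markers were 124 to 130, 58.3 to 61.3 and 357 to 368 CPM, with FOXF1 at 0 in C75. Of the pluripotency markers, ZFP42 rose 1.21-fold with C75 while the other 4 fell, and all 5 rose with ETO. The mesoderm sum was mostly KDR (121.5, 58.0 and 346.9 CPM on average). Primitive streak markers summed to 2521 to 2576, 2949 to 3225 and 1466 to 1518 CPM in DE, C75 and ETO, a sum made up mostly of FGF17 and MIXL1. With ETO 3 of these 5 markers rose, among them TBXT (5.93-fold) and EVX1 (3.29-fold), and 2 fell, and with C75 TBXT and EVX1 fell and 3 rose. Ectoderm and neural markers summed to 432 to 447, 349 to 362 and 834 to 861 CPM, mostly NES (367, 260 and 829 CPM on average), with SOX1 at 0 in C75. The other 3 tested, PAX6, SOX10 and TUBB3, moved against NES: they rose with C75 and fell with ETO (4.60-fold, 4.04-fold and 1.95-fold). Visceral endoderm and liver markers summed to 33.5 to 37.1 CPM in DE, 36.6 to 40.8 in C75 and 10.9 to 12.5 in ETO, with AFP and TTR at 0 in C75. With ETO 3 of the 4 tested fell, while AFP rose 7.45-fold, to only 1.72 CPM. Trophoblast and amnion markers summed to 39.4 to 42.6, 22.2 to 25.0 and 40.6 to 46.2 CPM, and 4 of 4 tested fell with C75. They split with ETO: TFAP2C (2.13-fold) and GABRP (2.79-fold) rose, GATA3 fell 1.64-fold and TFAP2A was not called. The part of these shifts in the results below was not tested. In bulk RNA, fewer cells of a type and less RNA per cell cannot be told apart.

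SCD, the main desaturase of saturated chains, was the most abundant of the 10 transcripts and was higher with both inhibitors. SCD CPM values were 1338, 1279.99 and 1282 in the DE libraries, 1563, 1536 and 1498 in the C75 libraries and 1885, 1923 and 1923 in the ETO libraries. The 3 groups did not overlap, and ETO was highest. SCD rose 1.18-fold with C75 (by edgeR, log2 fold change 0.24 with SE 0.028 and adjusted p = 6.2e-09) and 1.47-fold with ETO (0.56, SE 0.028, adjusted p = 1.1e-18). It was lower in C75 than in ETO (−0.32, SE 0.028, adjusted p = 2.1e-12).

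SCD5, a second enzyme with the same reaction, was the only 1 of the 4 desaturase genes that fell with an inhibitor. SCD5 CPM values were 30.2, 27.8 and 26.4 in the DE libraries, 19.3, 16.4 and 20.3 in the C75 libraries and 22.8, 21.4 and 23.6 in the ETO libraries. All 6 inhibitor libraries were below all DE libraries, and C75 was below ETO. SCD5 fell 1.51-fold with C75 (log2 fold change −0.60, SE 0.078, adjusted p = 4.4e-08) and 1.25-fold with ETO (−0.32, SE 0.075, adjusted p = 2.9e-04), and differed between C75 and ETO by −0.28 (SE 0.080, adjusted p = 0.0023).

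FADS1, which acts late in the desaturation of polyunsaturated chains, rose by similar amounts with either inhibitor. FADS1 CPM values were 251, 242 and 251 in the DE libraries, 304, 302 and 289 in the C75 libraries and 315, 319 and 321 in the ETO libraries. No DE library reached any inhibitor library. The rise was 1.20-fold with C75 (log2 fold change 0.27, SE 0.033, adjusted p = 1.1e-08) and 1.28-fold with ETO (0.36, SE 0.032, adjusted p = 7.1e-12), and C75 was lower than ETO by a small margin (−0.09, SE 0.032, adjusted p = 0.011).

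FADS2, the first desaturase of the polyunsaturated route, responded mainly to C75. FADS2 CPM values were 559, 559.7 and 552 in the DE libraries, 825, 802 and 842 in the C75 libraries and 607, 592 and 596 in the ETO libraries. The C75 libraries stood well above the other 6, and the ETO libraries lay just above DE without overlap. FADS2 rose 1.48-fold with C75 (log2 fold change 0.56, SE 0.029, adjusted p = 7.0e-18) and 1.07-fold with ETO (0.10, SE 0.030, adjusted p = 0.0024). The difference between C75 and ETO was 0.46 (SE 0.029, adjusted p = 3.2e-16).

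Among elongases of the polyunsaturated route, ELOVL2 showed the largest changes of the 10 genes. ELOVL2 lengthens the longer polyunsaturated chains on the way to docosahexaenoic acid. ELOVL2 CPM values were 157, 143 and 144 in the DE libraries, 276, 276 and 274 in the C75 libraries and 49.01, 51.1 and 47.5 in the ETO libraries. C75 was above and ETO below every DE library, with wide gaps. ELOVL2 rose 1.86-fold with C75 (log2 fold change 0.90, SE 0.037, adjusted p = 1.2e-20) and was 3.00-fold lower with ETO (−1.59, SE 0.043, adjusted p = 1.9e-26). The direct difference was 5.60-fold (2.49, SE 0.042, adjusted p = 3.9e-33), and 94.3% of all genes tested differed less between C75 and ETO.

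ELOVL5, which lengthens polyunsaturated chains one step earlier, was lower with C75 and higher with ETO. ELOVL5 CPM values were 185, 180.0 and 183 in the DE libraries, 158, 153 and 153 in the C75 libraries and 209, 216 and 208 in the ETO libraries. The groups did not overlap. ELOVL5 fell 1.18-fold with C75 (log2 fold change −0.24, SE 0.035, adjusted p = 2.5e-07) and rose 1.15-fold with ETO (0.21, SE 0.034, adjusted p = 2.0e-06), with a direct difference of −0.45 (SE 0.0345, adjusted p = 5.3e-14).

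ELOVL6, the elongase that takes the palmitate made by fatty acid synthase, was also lower with C75 and higher with ETO. ELOVL6 CPM values were 117, 119 and 122 in the DE libraries, 77.9, 84.1 and 82.0 in the C75 libraries and 161, 172 and 155 in the ETO libraries. Again no library of 1 group reached another group. ELOVL6 fell 1.47-fold with C75 (log2 fold change −0.56, SE 0.043, adjusted p = 2.8e-13) and rose 1.36-fold with ETO (0.45, SE 0.040, adjusted p = 6.1e-12), and C75 was 2.00-fold below ETO (SE 0.042 on the log2 scale, adjusted p = 2.1e-21).

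ELOVL7, an elongase of long saturated chains, had the lowest level per length of the 10 and the largest rise with ETO. ELOVL7 CPM values were 4.61, 4.91 and 5.08 in the DE libraries, 2.82, 2.37 and 3.62 in the C75 libraries and 12.2, 10.4 and 12.1 in the ETO libraries, on 43 to 268 counts a library. The ETO libraries all lay above the rest, and the C75 libraries all lay below DE. ELOVL7 fell 1.65-fold with C75 (log2 fold change −0.72, SE 0.16, adjusted p = 2.1e-04) and rose 2.38-fold with ETO (1.25, SE 0.13, adjusted p = 1.1e-10), a direct difference of 3.93-fold (−1.97, SE 0.14, adjusted p = 6.9e-15).

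ELOVL1, which supplies very long saturated and monounsaturated chains for sphingolipids, was higher with C75 and lower with ETO. ELOVL1 CPM values were 38.3, 39.4 and 37.0 in the DE libraries, 51.8, 44.9 and 50.5 in the C75 libraries and 33.0, 29.3 and 32.3 in the ETO libraries, without overlap between groups. ELOVL1 rose 1.28-fold with C75 (log2 fold change 0.36, SE 0.060, adjusted p = 3.6e-06) and fell 1.21-fold with ETO (−0.28, SE 0.063, adjusted p = 1.9e-04). C75 was 1.56-fold above ETO (0.64, SE 0.061, adjusted p = 1.6e-11).

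ELOVL4, known for the ultra-long chains of retina and skin, was low and was higher with both inhibitors. ELOVL4 CPM values were 9.69, 8.69 and 9.47 in the DE libraries, 16.1, 12.6 and 14.2 in the C75 libraries and 11.4, 13.3 and 13.9 in the ETO libraries. The C75 and ETO libraries overlapped each other and lay above DE. ELOVL4 rose 1.54-fold with C75 (log2 fold change 0.62, SE 0.10, adjusted p = 3.8e-06) and 1.38-fold with ETO (0.46, SE 0.10, adjusted p = 2.0e-04). The difference of C75 from ETO missed the threshold (0.16, 95% interval −0.04 to 0.36, adjusted p = 0.13), but without C75 replicate 2 the difference was called (0.24, adjusted p = 0.041).

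**Figure D1:**
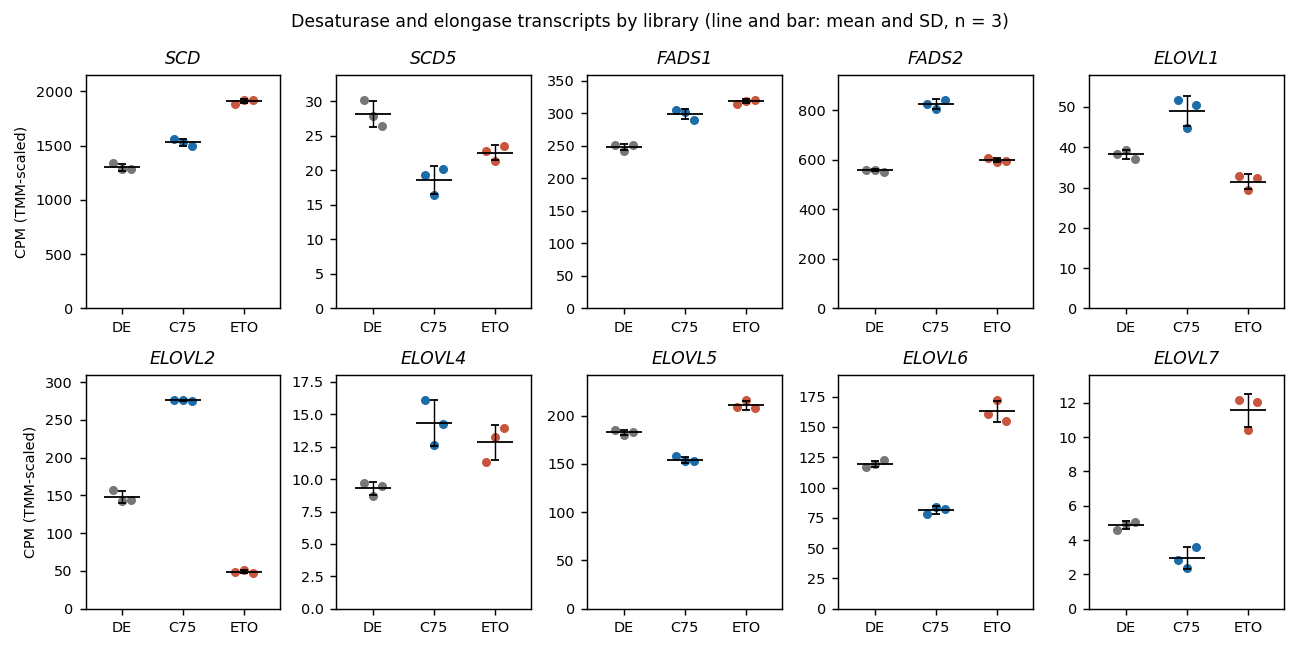
Transcript level (CPM, linear axis from 0) of the 10 genes in each of the 9 libraries, with the mean and SD of 3 libraries per group. ELOVL2 lies highest in C75 (274 to 276 CPM) and lowest in ETO (47.5 to 51.1 CPM), while ELOVL5, ELOVL6 and ELOVL7 lie highest in ETO and lowest in C75.

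As a set, 10 of 10 genes were called in C75 against DE (adjusted p below 0.05), 6 higher and 4 lower, where 63.1% of the 14177 genes tested were called (31.2% higher and 31.9% lower). At least a 1.5-fold change was called for 4 of them, ELOVL2 and ELOVL4 higher and SCD5 and ELOVL7 lower, against 19.8% of genes tested (7.31% higher and 12.5% lower). Their median log2 fold change was 0.25, and that of all genes tested was −0.0046. In ETO against DE, 10 of 10 were called, 7 higher and 3 lower, where 69.9% of genes tested were called (34.7% higher and 35.3% lower). Only ELOVL7 (higher) and ELOVL2 (lower) reached 1.5-fold there, 2 of 10 against 27.8% of genes tested (16.2% higher and 11.6% lower), and the median was 0.28 against −0.0034 for all genes. Between C75 and ETO, 9 of 10 were called, 3 higher and 6 lower in C75, where 79.2% of genes tested were called (39.9% higher and 39.2% lower). There 4 reached 1.5-fold, ELOVL1 and ELOVL2 higher and ELOVL6 and ELOVL7 lower, against 42.1% of genes (19.0% higher and 23.1% lower). So high a share of all genes was called in each comparison that being called does not set these genes apart. Their median absolute log2 fold change was 0.56 with C75, 0.40 with ETO and 0.46 between C75 and ETO. Over all genes tested it was 0.27, 0.33 and 0.49, so between the inhibitors the 10 did not change more than genes in general. There the share of genes tested that differed less ran from 10.7% for FADS1 to 94.3% for ELOVL2.

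The comparisons with DE share the DE libraries, so how the inhibitors differ was read from their direct comparison. It comes from the same fit and the same C75 and ETO libraries, so it is not independent of the comparisons with DE. By its values, ELOVL2, ELOVL1 and FADS2 were the genes higher in C75 than in ETO. ELOVL7, ELOVL6, ELOVL5, SCD, SCD5 and FADS1 were lower.

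**Figure D2:**
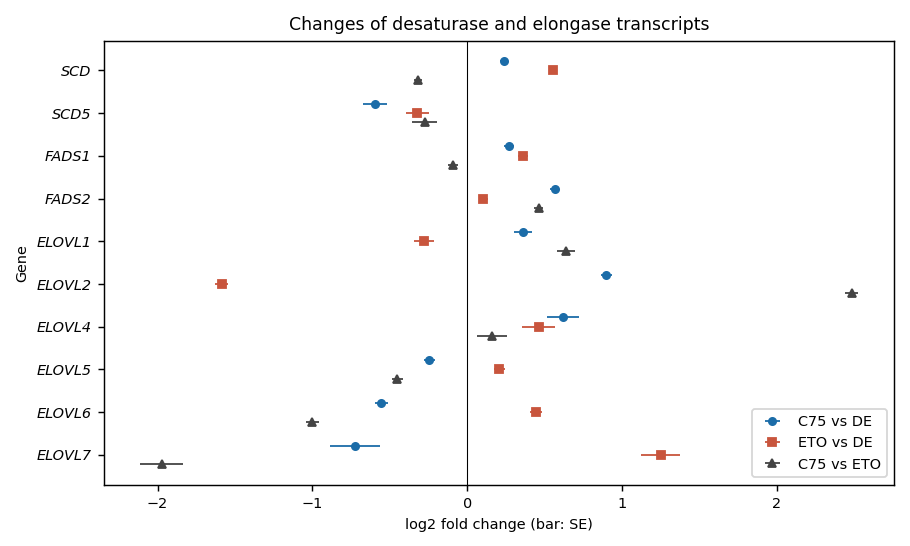
Log2 fold change (horizontal axis) of each gene in the 3 comparisons, with bars for the SE. ELOVL2 has the largest difference between C75 and ETO (2.49), ELOVL7 the largest in the other direction (−1.97), and FADS1 (−0.09) the smallest that was called.

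Levels of different genes were compared per length, as CPM per kilobase of merged exons. In DE the order was SCD (242 ± 6.13, SD, n = 3), FADS2 (50.5 ± 0.411), ELOVL5 (48.0 ± 0.689), ELOVL2 (36.9 ± 1.96), FADS1 (24.3 ± 0.485), ELOVL6 (16.4 ± 0.363), ELOVL1 (15.3 ± 0.479), SCD5 (6.56 ± 0.448), ELOVL4 (3.05 ± 0.173) and ELOVL7 (1.06 ± 0.0524), and no neighbours in that order overlapped. In C75, ELOVL2 (68.9 ± 0.261 CPM per kilobase) moved above ELOVL5 (40.5 ± 0.768) and ELOVL1 (19.6 ± 1.47) above ELOVL6 (11.2 ± 0.431), while ELOVL4 and SCD5 overlapped. In ETO, ELOVL5 (55.4 ± 1.23 CPM per kilobase) and FADS2 (54.3 ± 0.681) overlapped below SCD, ELOVL6 (22.3 ± 1.19) stood below FADS1, and ELOVL2 (12.3 ± 0.454) overlapped with ELOVL1 (12.6 ± 0.782). The merged exons of FADS1 and FADS2 (10230 and 11026 bases) are far longer than their principal transcripts (4525 and 3630 bases). With principal transcript lengths, an alternative chosen after seeing the data, FADS2 stood at 153, 227 and 165 CPM per kilobase in DE, C75 and ETO and FADS1 at 54.8, 66.0 and 70.3, which placed FADS2 next to SCD in every group and FADS1 above ELOVL2 in DE and above ELOVL5 in C75. ELOVL1 (23.5) was then above ELOVL6 (18.5) already in DE, so the move of ELOVL1 above ELOVL6 in C75 depends on the length used. In ETO, ELOVL5 no longer overlapped with FADS2, nor ELOVL2 (12.3) with ELOVL1 (19.4).

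Within the elongases, the balance between genes differed most. ELOVL2 made up 30.6 ± 1.02% of the summed elongase level per length in DE, 47.4 ± 0.785% in C75 and 11.3 ± 0.222% in ETO (SD, n = 3). ELOVL5 made up 39.8 ± 0.348%, 27.8 ± 0.256% and 50.6 ± 0.242%, and ELOVL6 13.6 ± 0.511%, 7.67 ± 0.411% and 20.4 ± 0.721%. So ELOVL2 was the leading elongase transcript in C75 and ELOVL5 in DE and ETO. The summed elongase level was 121 ± 2.34 CPM per kilobase in DE, 146 ± 2.23 in C75 and 109 ± 1.95 in ETO. Desaturase transcripts were dominated by SCD in all groups, at 74.9 ± 0.282%, 72.5 ± 0.590% and 79.7 ± 0.281% of a summed level of 324 ± 6.95, 394 ± 6.01 and 447 ± 3.73 CPM per kilobase. FADS2 took 15.6 ± 0.300%, 19.0 ± 0.605% and 12.1 ± 0.251% of that sum. These desaturase shares depend on the length used: with principal transcript lengths SCD took 52.7%, 48.9% and 59.5% and FADS2 33.4%, 38.8% and 27.5% in DE, C75 and ETO. ELOVL2 then took 25.0%, 40.1% and 8.87% and ELOVL5 43.7%, 31.8% and 53.8% of the elongase sum, with the same leading gene in each group.

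**Figure D3:**
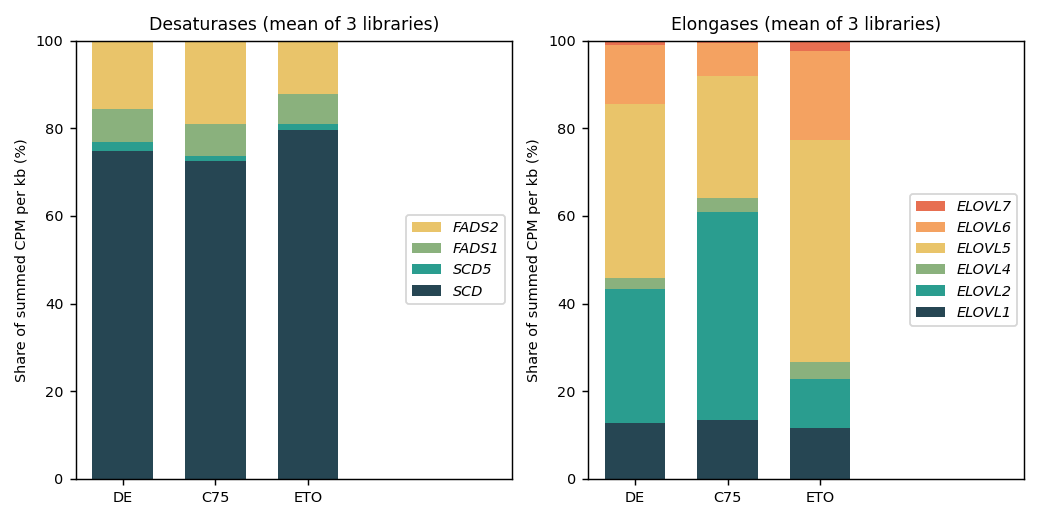
Share of each gene in the summed level per length (CPM per kilobase, mean of 3 libraries) of the 4 desaturases and of the 6 elongases, by group. The ELOVL2 segment grows from 30.6% in DE to 47.4% in C75 and shrinks to 11.3% in ETO, while SCD takes 72.5% to 79.7% of the desaturase sum with merged exon lengths.

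Ratios of 2 genes within a library do not depend on how libraries were scaled. The log2 ratio of ELOVL5 to ELOVL2, the elongases of successive polyunsaturated steps, was 0.31, 0.40 and 0.42 in DE, −0.74, −0.79 and −0.78 in C75 and 2.16, 2.15 and 2.20 in ETO. With merged exon lengths, ELOVL5 per length was thus 1.30 times ELOVL2 in DE, 0.588 times in C75 and 4.50 times in ETO. The value of each ratio depends on the length used, but its differences between groups do not. The ratio of ELOVL6 to SCD, the steps that lengthen and desaturate saturated chains, was −3.96, −3.87 and −3.83 in DE and −4.77, −4.63 and −4.64 in C75, a 1.73-fold lower ratio, whereas in ETO it was −3.99, −3.93 and −4.07 and overlapped with DE. SCD and ELOVL6 thus rose together with ETO and moved apart with C75.

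The log2 ratio of SCD5 to SCD was −5.14, −5.20 and −5.28 in DE, −6.02, −6.23 and −5.88 in C75 and −6.05, −6.17 and −6.03 in ETO. It was lower with either inhibitor, 1.78-fold in C75 and 1.83-fold in ETO, and the inhibitor groups overlapped. The log2 ratio of FADS1 to FADS2 was −1.05, −1.10 and −1.03 in DE, −1.33, −1.30 and −1.43 in C75 and −0.84, −0.79 and −0.78 in ETO, lower with C75 and higher with ETO without overlap. In two-sided exact permutation tests, 10 of the 12 differences had p = 0.1 (0.12 after Benjamini-Hochberg adjustment over 12 tests), the smallest p that 3 against 3 libraries allow. The other 2 were ELOVL6 to SCD in ETO against DE (exact p = 0.2, adjusted p = 0.22) and SCD5 to SCD in C75 against ETO (exact p = 0.8, adjusted p = 0.8).

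**Figure D4:**
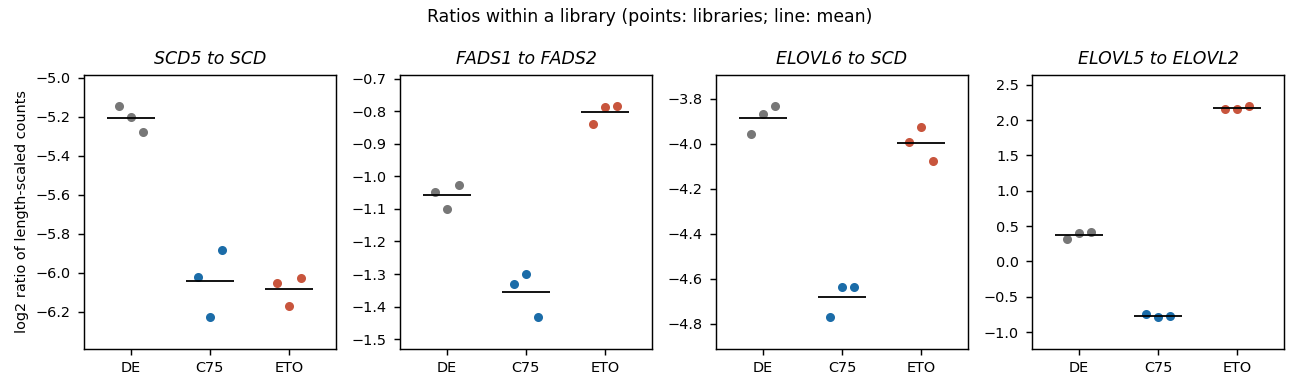
Log2 ratio of length-scaled counts within each library (points) and the group mean (line), on axes that do not start at 0. ELOVL5 to ELOVL2 separates the 3 groups most widely, from −0.79 to −0.74 in C75 to 2.15 to 2.20 in ETO, while ELOVL6 to SCD overlaps between DE and ETO.

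Sequence upstream of SCD, ELOVL2 and ELOVL7 is shown because SCD is the most abundant of the 10 and the other 2 had the largest opposite differences between the inhibitors. The stretches are from RefSeq (GRCh38.p14), 5′ to 3′ on the strand of the gene, end at the outermost GENCODE start of the gene and carry matched motifs in capitals.
SCD (chr10:100346983-100347123): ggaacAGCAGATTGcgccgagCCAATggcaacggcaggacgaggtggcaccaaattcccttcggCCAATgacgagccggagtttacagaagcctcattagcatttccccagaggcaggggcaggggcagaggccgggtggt
ELOVL2 (chr6:11044315-11044555): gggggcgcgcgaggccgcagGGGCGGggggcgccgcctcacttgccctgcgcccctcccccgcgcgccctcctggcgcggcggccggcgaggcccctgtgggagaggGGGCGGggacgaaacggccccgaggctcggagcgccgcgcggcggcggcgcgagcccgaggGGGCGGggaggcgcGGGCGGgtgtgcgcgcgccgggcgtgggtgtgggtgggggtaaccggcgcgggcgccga
ELOVL7 (chr5:60844390-60844519): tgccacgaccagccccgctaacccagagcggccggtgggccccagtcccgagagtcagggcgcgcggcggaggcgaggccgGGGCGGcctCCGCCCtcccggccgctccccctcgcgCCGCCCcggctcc
The SCD stretch held AGCAGATTG, the sterol regulatory element variant known from stearoyl-CoA desaturase promoters, 245 bases before the RefSeq start, and CCAAT boxes at 229 and 186 bases. Both strands of the 250 bases before each start were searched, and AGCAGATTG was added to the motifs after the SCD sequence was seen. AGCAGATTG occurred in 0.12% of 35116 promoter windows, CCAAT in 32.01%, GGGCGG (the GC box) in 42.64% and TCACNCCAC, the sterol regulatory element of the LDL receptor gene, in 0.88%. The E-box CACGTG was in 6.34% and TATAAA in 10.72%, and neither was in the windows of SCD, ELOVL2 or ELOVL7. ELOVL2 had 4 GC boxes and no CCAAT in its window, and the windows of SCD and ELOVL7 held GC boxes as well. TCACNCCAC was in none of the windows of the 10 genes. For FADS2 these windows lie at RefSeq starts 61816203 and 61816404, far from its principal GENCODE start at 61827761, whose upstream sequence was not searched. Matches of letters are descriptions and show no binding.

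SREBF1, whose product SREBP1 drives many lipogenic genes, had CPM values of 107, 108 and 103 in the DE libraries, 222, 199 and 224 in the C75 libraries and 85.6, 81.3 and 86.7 in the ETO libraries. The C75 libraries were all above and the ETO libraries all below DE. It rose 2.03-fold with C75 (log2 fold change 1.02, SE 0.042, adjusted p = 8.5e-21) and fell 1.26-fold with ETO (−0.33, SE 0.045, adjusted p = 6.5e-08). SREBF2, which encodes the factor of cholesterol synthesis, had log2 fold changes of −0.16 (adjusted p = 2.3e-04) with C75 and 0.07 (adjusted p = 0.065) with ETO. Of the 15 tested genes of the control list (SREBP1 and its processing, the LXR and retinoid receptors, ChREBP and PPARs), 7 rose and 6 fell with C75, with a median log2 fold change of 0.06, and 5 rose and 7 fell with ETO, with a median of −0.05. Beside the counts of this list and of each list below stand the shares of all genes tested. Those were 31.2% higher and 31.9% lower with C75 (median −0.0046), and 34.7% higher and 35.3% lower with ETO (median −0.0034). No list was tested as a set.

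The elongation cycle has 3 further steps after the elongase, a reduction by HSD17B12, a dehydration by HACD1 to HACD4 and a second reduction by TECR. Of these 6 genes, 4 rose and 2 fell with C75 (median 0.19), and with ETO 4 fell (median −0.37) and the remaining genes, HSD17B12 (0.03, adjusted p = 0.45) and HACD1 (−0.06, adjusted p = 0.47), did not pass. HSD17B12 rose 1.37-fold and HACD1 1.64-fold with C75. HACD4 was 2.70-fold lower with C75 and 1.52-fold lower with ETO, at only 8.0, 3.0 and 5.3 CPM in DE, C75 and ETO. HACD3, at 277.5, 199.6 and 210 CPM, fell 1.39-fold with C75 and 1.32-fold with ETO. TECR rose 1.11-fold with C75 and fell 1.25-fold with ETO. HACD2, which stood at 140 ± 2.26 CPM in DE, rose to 165 ± 4.80 CPM with C75 and fell to 85.1 ± 3.50 CPM with ETO (1.64-fold, adjusted p = 1.2e-17).

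Desaturases take electrons from cytochrome b5 and its reductases. Of the 6 genes of that list, 2 rose and 2 fell with C75 (median 0.002), and 1 rose and 5 fell with ETO (median −0.36). CYB5R1 rose 2.39-fold with C75, to 50.0 ± 3.22 from 20.9 ± 0.537 CPM, and was 1.54-fold lower with ETO. CYB5B rose 1.36-fold with C75 and fell 1.27-fold with ETO, and CYB5R2 fell 1.71-fold with ETO. CYB5A was the 1 gene that rose with ETO (1.25-fold, adjusted p = 0.0014). With C75 CYB5A did not pass (log2 fold change 0.07, adjusted p = 0.53). The reductase genes CYB5R3 and CYB5R4 fell with both inhibitors, by 1.26-fold and 1.20-fold with C75 and by 1.30-fold and 1.22-fold with ETO.

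Upstream of the 10 genes, the palmitate and malonyl-CoA list had 5 of 8 genes higher and 1 lower with C75 (median 0.21) and 5 higher and 2 lower with ETO (median 0.20). FASN, the target of C75, stood at 1466 ± 29.7, 1747 ± 83.3 and 1820 ± 65.7 CPM in DE, C75 and ETO, 1.19-fold and 1.24-fold above DE. ACACB, an acetyl-CoA carboxylase gene at low level, rose 1.66-fold with ETO. MCAT, the mitochondrial malonyl transferase gene, stood 1.77-fold above ETO in C75. Among related enzymes, FADS6 rose with C75 (log2 fold change 0.58, adjusted p = 0.0034), and FADS3 and DEGS1 did not pass in either comparison with DE. ELOVL3, the remaining elongase gene, had 5 counts over the 3 C75 libraries and 0 in the others and was not tested.

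Of 10 genes that place acyl chains in phospholipid, triglyceride or cholesterol ester, 2 rose and 3 fell with C75 (median −0.10), and 3 rose and 4 fell with ETO (median −0.06). SOAT1, which esterifies cholesterol, rose 1.54-fold with C75 and fell 1.89-fold with ETO. DGAT2, of triglyceride synthesis, fell 2.33-fold with ETO (log2 fold change with C75 −0.11, adjusted p = 0.47), and DGAT1 in C75 exceeded ETO 1.57-fold. MBOAT1, a lysophospholipid acyltransferase gene, fell 1.82-fold with C75 and was 2.72-fold lower in C75 than in ETO. The acyltransferase genes LPCAT1 and LPCAT2 were also lower in C75 than in ETO, by 1.53-fold and 1.63-fold, and the phospholipid remodelling gene LPCAT3 did not pass against DE (log2 fold changes −0.09 and −0.11).

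**Figure D5:**
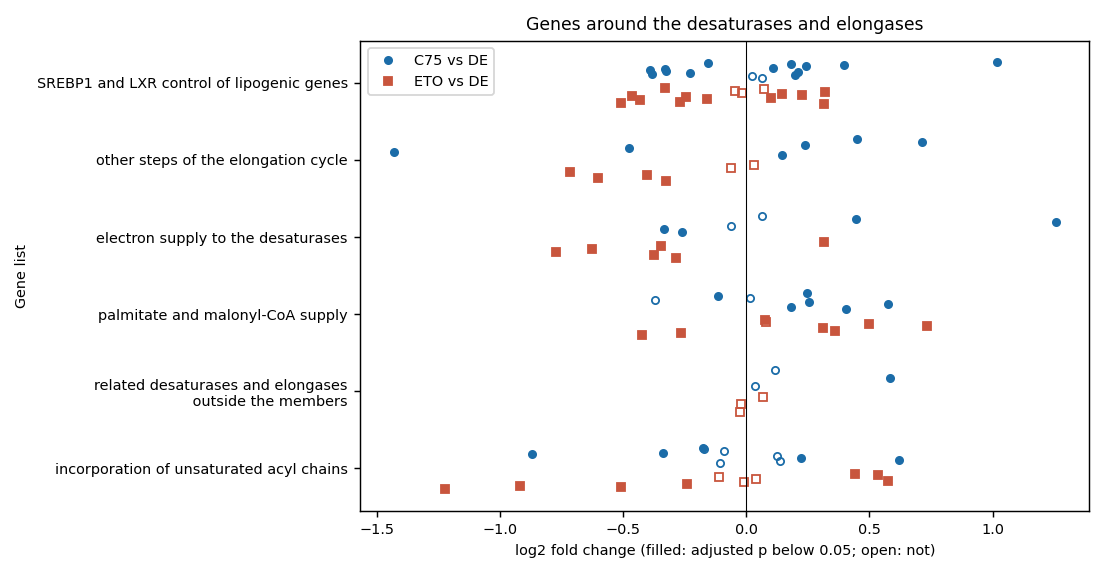
Log2 fold change against DE (horizontal axis) of each tested gene of 6 lists around the desaturases and elongases, circles for C75 and squares for ETO, filled where the adjusted p is below 0.05. The elongation cycle and the electron supply lie mostly left of 0 with ETO (medians −0.37 and −0.36), and CYB5R1 and SREBF1 lie farthest right with C75 (1.26 and 1.02).

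Across the 9 libraries, the genes whose log2 CPM followed SCD most closely among 11071 genes with a mean of at least 5 CPM were ABCC5, SIPA1L2 and TRIM25 (Pearson r of 0.996, 0.995 and 0.995). FADS2 was followed by SLC7A5, HPS5 and PDXDC1 (0.998, 0.996 and 0.996), and ELOVL5 by XPO1, FREM2 and MYSM1 (0.999, 0.998 and 0.997). SLC7A5, an amino acid transporter gene, stood at 1219, 2032 and 1356 CPM in DE, C75 and ETO. These points fall into 3 groups, so r mostly reflects the order and spacing of 3 means, and 0.12%, 0.13% and 1.30% of the genes searched had r above 0.99 with SCD, FADS2 and ELOVL5.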

How the data were processed

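The authors deposited raw counts per gene symbol for 9 libraries, with a gene length column. HISAT2 2.1.0, featureCounts 1.6.4 and hg38/GRCh38 are named in the submitters' processing notes without a role. For the annotation, the strand setting and the selection of RNA, nothing was given in the sources used here. Of the 19907 symbols, 99.84% had the merged exon length of GENCODE release 29, whose positions are given.

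Counts were tested with edgeR 4.0.16 (R 4.3.3): filterByExpr by group (14177 genes, 99.962% of counts), TMM factors and quasi-likelihood F-tests fitted once to the 9 libraries on group alone. P-values were adjusted by Benjamini-Hochberg over all genes tested, and SEs were derived from F. CPM use TMM-scaled library sizes, and CPM per kilobase also the deposited length. Ratios used counts plus 0.5 and exact permutation tests (scipy 1.17.1). On simulated C75 against DE counts (13987 genes), 91% of 200 genes changed 1.5-fold were recovered. The simulation gave every gene the same spread and left all other genes unchanged, unlike the data. Its rate therefore does not give the power of the real fit. Same-numbered libraries of different groups had correlations of deviations from −0.027 to 0.050, so numbers were not treated as pairs. Within groups, library pairs differed by more than sampling noise.

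The text names the 10 genes, list genes called with at least a 1.5-fold change plus SREBF1, SREBF2 and FASN, and the 3 closest genes of each of the 3 most abundant members. HSD17B12, HACD3, TECR, CYB5A, CYB5B, CYB5R3, CYB5R4, FADS3, DEGS1, ELOVL3, LPCAT3 and FADS6 against DE were named after their values were seen. A further gene list is not reported here. Members and lists were chosen with earlier results of these data known. Alternatives were other scaling (median of ratios, upper quartile), no filter or at least 1 CPM in 3 libraries, DESeq2 1.42.0, fits of 6 libraries, a replicate block and leaving out each library.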

Additional observations from a re-analysis of the deposited data

How the results depend on the processing

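All 10 genes kept their call and direction in C75 against DE and in ETO against DE under median-of-ratios and upper-quartile scaling, both filters, DESeq2, the fit of 6 libraries, the replicate block and without each of the 9 libraries. In C75 against ETO the count of called members was 9 under all of these except without C75 replicate 2, where ELOVL4 (0.24, adjusted p = 0.041) made it 10. The replicate block gave 10, 10 and 9 members and 8965, 9931 and 11230 genes called in C75 against DE, ETO against DE and C75 against ETO, and changed no member's call. The labels share replicate numbers, but no same-numbered pair correlated above 0.050. Without each library, genes called ranged from 8274 to 9008, 9415 to 10008 and 10907 to 11354. DESeq2 called 8105, 9227 and 10977. The ratio of SCD5 to SCD in C75 against ETO (log2 difference 0.04) ranged from −0.04 to 0.13, at −0.0411 without C75 replicate 3 and −0.0047 without ETO replicate 2, and the other 11 ratio differences kept their direction. Upper-quartile scaling moved the median of all genes by −0.05, 0.02 and −0.07. In C75 against DE it gave 3757 genes higher and 5165 lower, against 4422 and 4524 with TMM. Levels per length of SCD5, FADS1, FADS2, ELOVL1, ELOVL5, ELOVL6 and ELOVL7 depend on the length used. Depth limits ELOVL7 (43 counts in its lowest library) and ELOVL4 most.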
